A study of Homo sapiens with 7 samples.

Results

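Collagens, laminins and fibronectin are proteins of the extracellular matrix, and integrins are the cell surface receptors that bind them. The abundance of their mRNAs was compared between Huh-7 cells that had received a control siRNA (siC, 3 libraries) and Huh-7 cells that had received an siRNA pool directed against IGF2BP1 (siImp1, 4 libraries, Imp1 being another name of IGF2BP1). The genes were taken from the deposited table of 58174 genes by biotype and symbol, namely protein-coding genes whose symbol starts with COL and a digit, with LAMA, LAMB or LAMC and a digit, or with ITGA or ITGB, together with FN1. This rule gave 88 genes, of which 44 encode collagen chains, 12 laminin chains, 1 fibronectin and 26 integrin subunits. The remaining 5 (COL4A3BP, ITGB1BP1, ITGB1BP2, ITGB3BP and ITGBL1) carry such a symbol but encode none of these proteins, and they are described apart.

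Huh-7 is a human hepatocellular carcinoma-derived cell line that grows as an epithelial culture. All libraries were made from total RNA collected 72 h after transfection, and no group was left untransfected. IGF2BP1 is an oncofetal RNA-binding protein that stabilises target mRNAs, in part by sheltering them from microRNAs, and the question addressed was which transcripts depend on it in liver cancer cells. Nothing in the labels states that libraries of a group came from separate cultures, so that p-values measure the spread between these libraries, which may be technical.

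Collagens are trimers of chains wound into a triple helix. Fibrillar collagens form the cables of connective tissue, fibril-associated collagens decorate them, and type IV collagen forms the network of basement membranes, to which laminins, trimers of an alpha, a beta and a gamma chain, give their cell-binding layer. Integrins are dimers of an alpha and a beta subunit, the alpha subunit largely setting the ligand. In liver, most fibrillar collagen comes from activated stellate cells rather than hepatocytes, whereas hepatocytes are the main source of plasma fibronectin.

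MicroRNAs are part of the background of this comparison, since IGF2BP1 is known for opposing them, and the miR-29 family is known for repressing collagen mRNAs. The mature miR-29b is shown because its seed match recurs in collagen mRNAs, and let-7a because let-7 targets are the transcripts most often linked to IGF2BP1. Capitals mark the seed, bases 2 to 8 (sequences from RefSeq, 5′ to 3′).
hsa-miR-29b-3p: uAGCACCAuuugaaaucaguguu
hsa-let-7a-5p: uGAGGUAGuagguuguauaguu

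The letters TGGTGCT, which pair with the miR-29b seed, were searched on the sense strand of the 3′UTR of the canonical transcript of each gene (GRCh38, GENCODE release 44). They were present in the 3′UTR of 28 of 44 collagen genes (63.6%), of 3 of 12 laminin genes (25%) and of 2 of 26 integrin genes (7.69%). The share among all 19170 protein-coding genes of the table with a 3′UTR was 14%. Per kilobase of 3′UTR there were 0.593 matches in collagen genes and 0.0957 in all protein-coding genes. The match to the let-7a seed, CTACCTC, was present in 10 of 44 collagen genes (22.7%) and in 9.82% of all. A match is a description of letters and not a measured site.

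**Figure D1:**
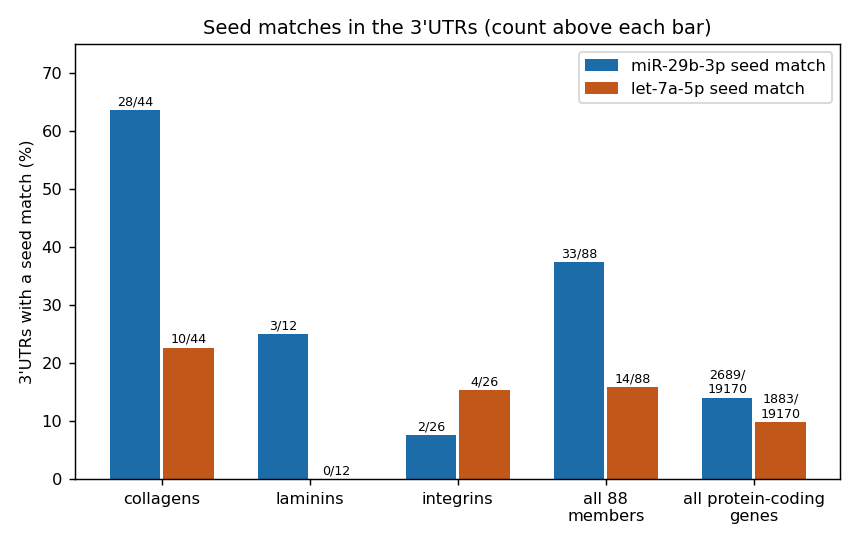
Share of 3′UTRs that hold the miR-29b or let-7a seed match (percent, vertical axis) in collagen, laminin and integrin genes, in all 88 genes taken by symbol and in all protein-coding genes, with counts above the bars. The miR-29b match was found in 28 of 44 collagen 3′UTRs and in 2689 of 19170 of all protein-coding genes.

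Of the 31 genes expressed enough for testing, 8 held the miR-29b match (25.8%), against 16.3% of all tested genes with a 3′UTR. Of the 13 tested collagen genes, 5 held it. The 8 sites are shown for the transcripts whose values are given below, with the seed match in capitals and coordinates in GRCh38.
COL5A2 (chr2:189032873-189032895, minus strand): tttttcctttaatgaTGGTGCTa
COL2A1 (chr12:47973039-47973061, minus strand): gtgtgtcctacacaaTGGTGCTa
COL27A1 (chr9:114311285-114311307, plus strand): ccactgtgaaatcgcTGGTGCTc
COL4A5 (chrX:108696469-108696491, plus strand): tactgctgccgtcaaTGGTGCTa
COL1A2 (chr7:94430898-94430920, plus strand): cttgaagaatgttgaTGGTGCTa
LAMC1 (chr1:183144238-183144260, plus strand): tattatctgacacacTGGTGCTa
ITGB1 (chr10:32900733-32900755, minus strand): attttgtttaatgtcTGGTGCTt
ITGA2 (chr5:53092674-53092696, plus strand): atatttaacagctagTGGTGCTg
The let-7a match is shown for ITGB8, the integrin gene that passed the threshold, and for COL5A2 and COL27A1, which hold both matches. COL1A2 also holds both and ITGA1 the let-7a match, and those let-7a sites are not shown. The let-7a match was held by 6 of the 31 tested genes, 4 of them collagen genes, so the genes named here are not all of them.
ITGB8 (chr7:20411588-20411610, plus strand): ttgcacaatatcatgCTACCTCt
COL5A2 (chr2:189033012-189033034, minus strand): atttcttagcatgagCTACCTCa
COL27A1 (chr9:114311263-114311285, plus strand): gggtgcccacgtttgCTACCTCc
In COL27A1 the let-7a match lies just upstream of the miR-29b match, the windows shown sharing 1 base. The 8 tested genes with a miR-29b match had a median log2 change of 0.306 (2 below 0 and 6 above), and the 23 without it -0.000319. When siC replicate 3, a control library described below, was left out, these medians were 0.14 (3 below 0 and 5 above) and -0.0628. Within the tested collagen genes, the median was 0.155 for the 5 with the miR-29b match and 0.184 for the 8 without it. Without siC replicate 3 these collagen medians were -0.0302 and -0.116. Over all tested protein-coding genes, the median was -0.0412 for 1727 genes with the match and -0.0273 for 8882 without it, and without that library -0.0359 and -0.0539. For the let-7a match, the median was 0.113 for the 6 tested genes with it and 0.0747 for the 25 without it. Those let-7a medians were 0.0636 and -0.0302 without siC replicate 3. Within the tested collagen genes, the median was 0.0942 with the let-7a match and 0.159 without it, and -0.115 and -0.0302 without that library. Over all tested protein-coding genes, it was -0.0594 for 1189 genes with the let-7a match and -0.0267 for 9420 without it. Without that library these were -0.0527 and -0.0511. The part of either match in these values was not tested.

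The target of the siRNA pool was examined first. IGF2BP1 (GRCh38 ENSG00000159217, chromosome 17, 48997385 to 49056145, plus strand) was at 81.9, 80.4 and 84.4 FPKM in siC replicates 1 to 3 and 15.6, 15.7, 16.6 and 15.3 FPKM in siImp1 replicates 1 to 4. The groups did not overlap, and the siImp1 mean was 19.2% of siC (log2 change -2.37, 95% interval -2.50 to -2.24, limma adjusted p = 1.16e-05). The libraries held 12826550 to 33212205 reads on genes. The siC replicate 3 stood apart. Its log2 values had an SD of 0.699 around the mean of the other libraries of its group, against 0.417 to 0.518 for the other 6 libraries, and limma gave it an array weight of 0.0986. Huh-7 markers were present, since 15 of 15 hepatocyte and hepatoma genes were tested. Their summed level was 6744 to 8817 FPKM in siC and 8193 to 8514 FPKM in siImp1. Of them, 1 passed the threshold (APOH, log2 change 1.69), against 8 without siC replicate 3 (5 lower and 3 higher). Over all genes tested, 3.93% passed with all libraries and 10.3% without siC replicate 3. Of 15 stellate cell and fibroblast markers 5 were tested, and 1 passed, higher in siImp1 (PDGFRA, log2 change 0.58). Of these 5 genes, 3 had a fitted change below 0 and 2 above, with a median log2 change of -0.231. LUM was lower in all siImp1 libraries than in all siC libraries (log2 change -0.38, limma adjusted p = 0.0235). The sums over the 15 genes were 21.17 to 23.59 FPKM in siC and 19.01 to 21.48 FPKM in siImp1. DES and FAP were at 0 in all libraries. Of 15 endothelial and leukocyte markers 3 were tested (PECAM1, CD14 and ITGAL, with limma adjusted p of 0.59, 0.0338 and 0.288), with sums of 4.644 to 7.792 FPKM in siC and 8.498 to 9.84 FPKM in siImp1, while KDR, TEK, CLEC4G and MS4A1 were at 0. PDGFRA and CD14 passed without siC replicate 3, both higher in siImp1. CD14 averaged 0.892 FPKM in siC and 2.25 FPKM in siImp1. It reached the mean of 1 FPKM needed for testing only through siImp1, so nothing is read from its call. Some markers are also matrix or integrin genes of the 88. They are COL1A1, COL1A2 and COL3A1 in the stellate cell list and ITGAM, ITGAL and ITGB2 in the endothelial and leukocyte list. COL1A2 and ITGAL were tested, so these lists are not independent of the genes described below. The part of the markers in the results below was not tested.

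Most matrix and integrin genes were silent or nearly so in Huh-7 cells. Of the 88 genes, 31 averaged 1 FPKM or more over the 7 libraries and were tested (FPKM are fragments scaled to gene length and library size), 18 lay between 0.1 and 1 FPKM, and 39 lay below 0.1 FPKM, of which 9 had no read in any library. The tested genes comprised 13 collagen chains, 4 laminin chains, FN1, 10 integrin subunits and 3 of the genes alike by symbol only. The summed level of the 88 genes was 838, 833.8 and 646.2 FPKM in siC replicates 1 to 3, and 762.1, 760, 788 and 759.3 FPKM in siImp1 replicates 1 to 4. FN1 alone contributed 173 FPKM to the mean of siC.

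At an adjusted p of at most 0.01 (limma, Benjamini-Hochberg over 14839 genes), 2 of the 31 tested genes passed, or 6.45%, against 3.93% of all genes tested. COL12A1 was lower and ITGB8 was higher in siImp1. ITGB8 reached the minimum of 1 FPKM only through siImp1, the group where it was high, so nothing is read from this share. Among all genes 2.28% were lower and 1.65% higher. With the GC trend taken out of each library, 1 of the 31 was called lower and 3 higher. The share of all genes called in that fit is not given here, so nothing is read from these counts. Among the 31 genes, 12 had an unadjusted p under 0.05 in limma, of which 4 had a change below 0 and 8, ITGB8 among them, above. Over all 14839 genes tested, 3838 had such a p, of which 2200 had a change below 0 and 1638 above. The median log2 change of the 31 genes was 0.0747, against -0.0174 for all genes tested. Levels in siC and siImp1 lay fully apart for 11 of the 31 (35.5%), against 27% of all genes. Less RNA per cell and fewer cells expressing a gene cannot be told apart in such bulk samples.

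The count depended on the control library that stood apart. In the fit without siC replicate 3, 11 of the 31 tested genes passed (35.5%), against 10.3% of all genes. Lower were 7 (COL12A1, COL14A1, COL5A2, LAMA5, LAMB1, LAMB2 and FN1) and higher were 4 (ITGB8, ITGA6, ITGB1 and COL9A2), while 6.67% of all genes were lower and 3.59% higher. The lower genes were 3 collagens, 3 laminins and fibronectin, and of the 4 higher genes 3 were integrins. ITGB8, tested only through its level in siImp1, is among these integrins. It counts in both the 11 and the 31, so nothing is read from the share of 35.5% either. Without any other single library, neither COL12A1 nor ITGB8 passed, and no other of the 31 genes did.

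**Figure D2:**
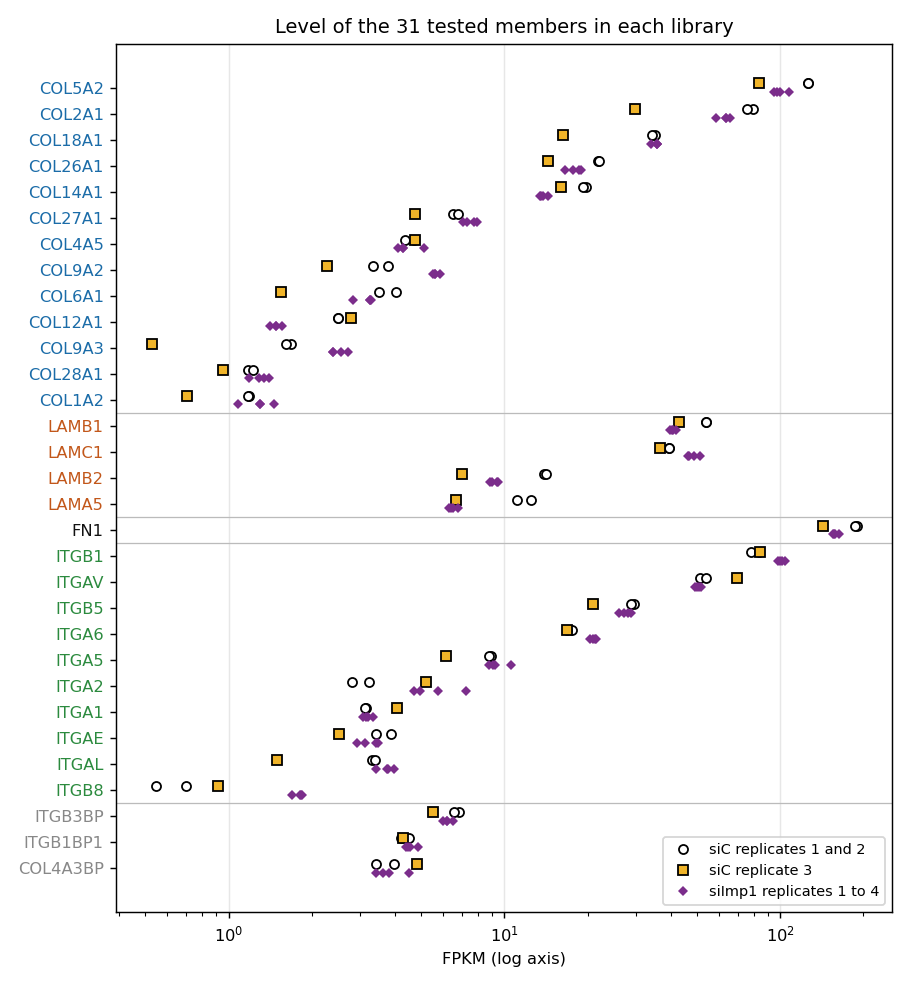
Level of the 31 tested genes in each library (FPKM, log axis), with siC replicates 1 and 2 as open circles, siC replicate 3 as squares and the 4 siImp1 libraries as diamonds, and names coloured by family. The siImp1 libraries of COL12A1 lie below and those of ITGB8 above all siC libraries, and siC replicate 3 lies to the left of its own group for COL2A1, COL18A1, COL9A3 and LAMB2.

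Fibronectin binds collagens as well as integrins and was the most abundant of these transcripts. FN1 (ENSG00000115414, chromosome 2, 215360440 to 215436073, minus strand) was at 189.8, 186 and 143 FPKM in siC replicates 1 to 3. In siImp1 replicates 1 to 4 it was at 155, 157, 163 and 157 FPKM. The siImp1 libraries lay between siC replicate 3 and the other siC libraries, and the groups overlapped. The log2 change was -0.12 (95% interval -0.37 to 0.14, limma adjusted p = 0.565), with 33989 to 103095 reads per library. Without siC replicate 3 it was -0.25 (95% interval -0.34 to -0.16, limma adjusted p = 0.00556, range 0.00497 to 0.901 across 18 other settings), and FN1 passed the threshold. Here and below, other settings are alternatives to the fit with all libraries, and they include the fit without siC replicate 3.

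COL12A1 was the collagen gene that passed the threshold. It encodes the chain of type XII collagen, a fibril-associated collagen with many fibronectin type III repeats that sits on the surface of collagen fibrils. COL12A1 (ENSG00000111799, chromosome 6, 75084326 to 75206267, minus strand, 66 exons) was at 2.49, 2.50 and 2.77 FPKM in siC replicates 1 to 3 and 1.49, 1.57, 1.41 and 1.49 FPKM in siImp1 replicates 1 to 4. All siImp1 libraries were below all siC libraries, siC replicate 3 being the highest of the 7. COL12A1 averaged 2.59 FPKM ± 0.160 in the siC libraries (SD, n = 3) against 1.49 FPKM ± 0.0650 with siImp1 (SD, n = 4), or 57.5% of siC (log2 change -0.76, 95% interval -1.01 to -0.51, limma adjusted p = 0.00613), with 233 to 998 reads per library. The direction was the same without each library (log2 change -0.78 to -0.71). The call was kept without siC replicate 3 (limma adjusted p = 0.00736) and lost when any 1 of the other 6 libraries was left out (limma adjusted p from 0.0185 to 0.033).

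The closely related fibril-associated collagen COL14A1 (ENSG00000187955, chromosome 8, 120059780 to 120373573, plus strand) was at 19.7, 19.3 and 16.1 FPKM in siC replicates 1 to 3 and 13.6, 13.5, 14.4 and 13.7 FPKM in siImp1 replicates 1 to 4. Again all siImp1 libraries lay below all siC libraries, by a smaller amount (log2 change -0.40, 95% interval -0.60 to -0.21, limma adjusted p = 0.0251), and the gene did not pass the threshold. With siC replicate 3 left out, the log2 change was -0.50 (95% interval -0.60 to -0.39, limma adjusted p = 0.00122, range 0.000215 to 0.249 across 18 other settings), and it passed. The siImp1 mean was 75.2% of siC for COL14A1 and 57.5% for COL12A1.

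Among fibrillar collagens, COL5A2 and COL2A1 stood far above the others. COL5A2 (ENSG00000204262, chromosome 2, 189031898 to 189225312, minus strand), the alpha 2 chain of type V collagen, which nucleates fibrils, was at 125, 126 and 83.4 FPKM in siC replicates 1 to 3 and 96.9, 94.99, 107 and 99.9 FPKM in siImp1 replicates 1 to 4. The siImp1 libraries lay above siC replicate 3 and below the other siC libraries (log2 change -0.14, 95% interval -0.50 to 0.22, limma adjusted p = 0.636). Dropping siC replicate 3 brought the log2 change to -0.34 (95% interval -0.47 to -0.20, limma adjusted p = 0.00818, range 0.00649 to 0.955 across 18 other settings).

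COL2A1 (ENSG00000139219, chromosome 12, 47972967 to 48004554, minus strand), which encodes the homotrimeric type II collagen of cartilage, was at 79.6, 75.7 and 29.7 FPKM in siC replicates 1 to 3 and 63.6, 63.3, 65.7 and 58.6 FPKM in siImp1 replicates 1 to 4. Here siC replicate 3 was at 38.2% of the mean of siC replicates 1 and 2, and the siImp1 libraries lay between. The sign of the change turned with that library. With all libraries the log2 change was 0.15 (95% interval -0.62 to 0.93, limma adjusted p = 0.822). Without siC replicate 3 it was -0.31 (95% interval -0.44 to -0.18, limma adjusted p = 0.0108, range 0.0108 to 0.891 across 18 other settings), which missed the threshold. The lower end of that range was this same fit.

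COL27A1 (ENSG00000196739, chromosome 9, 114155537 to 114312511, plus strand), a fibrillar collagen of cartilage and other tissues, was at 6.51, 6.78 and 4.74 FPKM in siC replicates 1 to 3 and 7.29, 7.73, 7.93 and 7.10 FPKM in siImp1 replicates 1 to 4. All siImp1 libraries were above all siC libraries, with siC replicate 3 the lowest (log2 change 0.33, 95% interval 0.029 to 0.64, limma adjusted p = 0.157). In the 6 libraries without siC replicate 3, the log2 change was 0.17, and the gene did not pass in either fit.

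Chains that are known to assemble with each other were not expressed alike, as levels per length showed. Partner chains outside the rule for named genes are given here and were chosen after their values were seen. COL5A1, the usual partner of COL5A2, had 4 reads over all 7 libraries, against 101504 reads for COL5A2. COL1A2 was at 1.19, 1.18 and 0.710 FPKM in siC replicates 1 to 3 and 1.31, 1.46, 1.30 and 1.08 FPKM in siImp1 replicates 1 to 4, whereas COL1A1, which provides most chains of type I collagen, had a mean of 0.0409 FPKM in siC and 0.00805 FPKM in siImp1. The highest fibrillar chain of these cells was thus read beside almost none of its usual partner, and the same held for the minor against the main chain of type I collagen.

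Type IV collagen showed the same kind of imbalance. COL4A5 (ENSG00000188153, chromosome X, 108439838 to 108697545, plus strand), whose chain forms the network of the glomerular and other specialised basement membranes, was at 4.37, 4.69 and 4.76 FPKM in siC replicates 1 to 3 and 4.29, 5.10, 4.30 and 4.11 FPKM in siImp1 replicates 1 to 4, and the groups overlapped (log2 change -0.053, limma adjusted p = 0.777). Its neighbour and partner COL4A6 had means of 0.382 FPKM in siC and 0.464 FPKM in siImp1. COL4A1, a chain of the common basement membrane network, had means of 0.174 and 0.117 FPKM. COL4A2, its partner, had 0 reads in all libraries, which allows up to 3 reads or 0.0108 to 0.0265 FPKM per library. COL4A1 and COL4A2 overlap each other on opposite strands, and whether reads were assigned by strand is not given in the sources used here. Such limits cover counting error only.

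**Figure D3:**
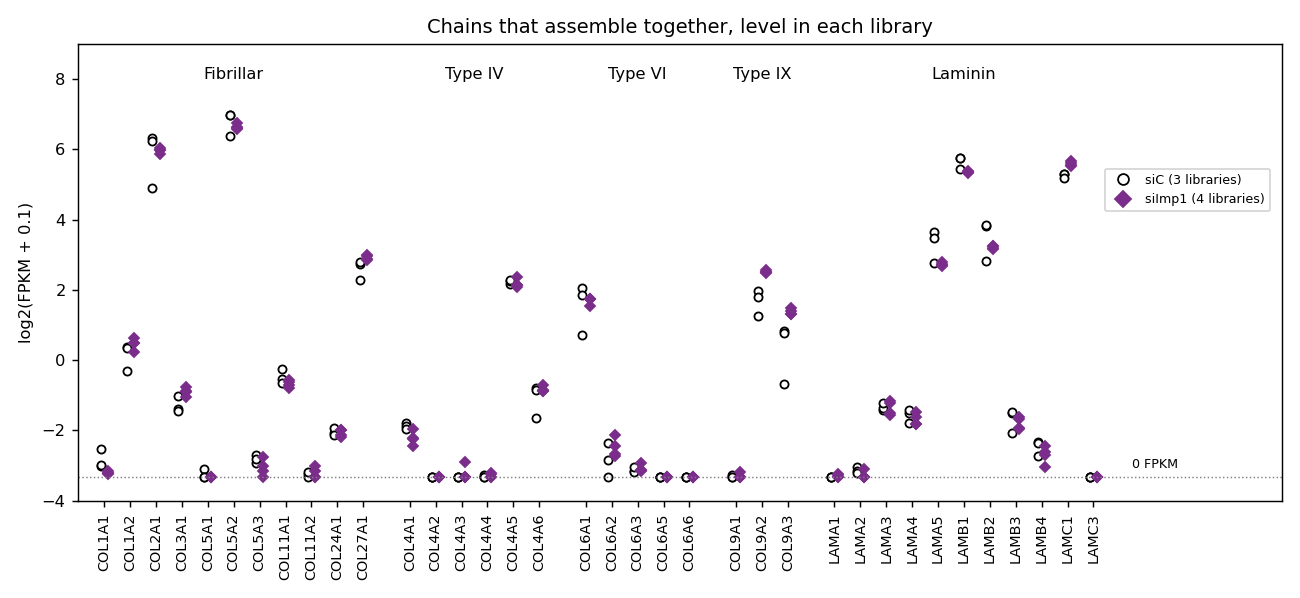
Level of the chains of fibrillar, type IV, type VI and type IX collagens and of laminins in each library, on log2(FPKM + 0.1), with siC libraries as open circles, siImp1 libraries as diamonds and a dotted line at 0 FPKM. COL5A2 is expressed beside COL5A1, and COL9A2 and COL9A3 beside COL9A1, whose points lie at or close to the line, and 4 laminin chains lie above 1 FPKM.

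Type IX collagen, a fibril-associated collagen of cartilage built from 3 different chains, had 2 of the chains expressed. COL9A2 (ENSG00000049089, chromosome 1, 40300489 to 40317813, minus strand) was at 3.80, 3.35 and 2.28 FPKM in siC replicates 1 to 3 and 5.62, 5.61, 5.85 and 5.51 FPKM in siImp1 replicates 1 to 4. All siImp1 libraries exceeded all siC libraries, and siC replicate 3 was the lowest. The siImp1 mean was 180.0% of siC, and the gene missed the threshold (log2 change 0.86, 95% interval 0.48 to 1.24, limma adjusted p = 0.018). It passed without siC replicate 3, where the log2 change was 0.65 (95% interval 0.48 to 0.82, limma adjusted p = 0.00222, range 0.000645 to 0.173 across 17 other settings).

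COL9A3 (ENSG00000092758, chromosome 20, 62816244 to 62841159, plus strand) was at 1.68, 1.61 and 0.526 FPKM in siC replicates 1 to 3 and 2.39, 2.38, 2.72 and 2.55 FPKM in siImp1 replicates 1 to 4. It too lay higher in all siImp1 libraries (log2 change 1.07, 95% interval 0.22 to 1.93, limma adjusted p = 0.113), with 35 to 249 reads per library. Leaving out siC replicate 3 moved the log2 change to 0.58 (95% interval 0.33 to 0.83, limma adjusted p = 0.0108, range 0.0108 to 0.328 across 17 other settings), and the gene did not pass. The lower end of that range was this same fit. COL9A3 overlaps TCFL5 on the other strand. The remaining chain, COL9A1, had 2 reads over the 7 libraries.

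The other collagens tested, COL6A1 and COL28A1, are named here after their values were seen. COL6A1, a chain of the beaded filaments of type VI collagen, was at 4.04, 3.50 and 1.55 FPKM in siC replicates 1 to 3 and 3.26, 2.82, 3.25 and 3.27 FPKM in siImp1 replicates 1 to 4. In siC replicate 3 it was at 41.1% of the mean of siC replicates 1 and 2, and the groups overlapped (log2 change 0.16 with all libraries and -0.25 without siC replicate 3, limma adjusted p = 0.796 and 0.123). COL28A1 was at 1.18, 1.23 and 0.955 FPKM in siC replicates 1 to 3 and 1.40, 1.18, 1.35 and 1.29 FPKM in siImp1 replicates 1 to 4, with overlapping groups (log2 change 0.21, limma adjusted p = 0.498).

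COL18A1 and COL26A1 completed the highest collagens. COL18A1 (ENSG00000182871, chromosome 21, 45405165 to 45513720, plus strand), which encodes the basement membrane collagen that releases endostatin and overlaps SLC19A1 on the other strand, was at 35.2, 34.3 and 16.3 FPKM in siC replicates 1 to 3 and 35.6, 35.7, 35.8 and 33.8 FPKM in siImp1 replicates 1 to 4. Apart from siC replicate 3, the 6 libraries spanned a narrow range. The log2 change was 0.38 with all libraries (limma adjusted p = 0.419) and 0.018 (95% interval -0.079 to 0.12, limma adjusted p = 0.778, range 0.146 to 0.778 across 18 other settings) without siC replicate 3. The upper end of that range was the fit without siC replicate 3 itself.

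COL26A1 (ENSG00000160963, chromosome 7, 101362875 to 101559024, plus strand) was at 21.9, 21.99 and 14.4 FPKM in siC replicates 1 to 3 and 18.7, 16.6, 18.9 and 17.7 FPKM in siImp1 replicates 1 to 4. The siImp1 libraries lay between siC replicate 3 and the other siC libraries (log2 change -0.087, 95% interval -0.45 to 0.28, limma adjusted p = 0.786). Leaving out siC replicate 3 gave a log2 change of -0.29, and the gene passed in neither fit. Of the 13 tested collagen genes, 5 had a fitted change below 0 and 8 above, with a median log2 change of 0.159. Without siC replicate 3 there were 7 below and 6 above, with a median of -0.0302.

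**Figure D4:**
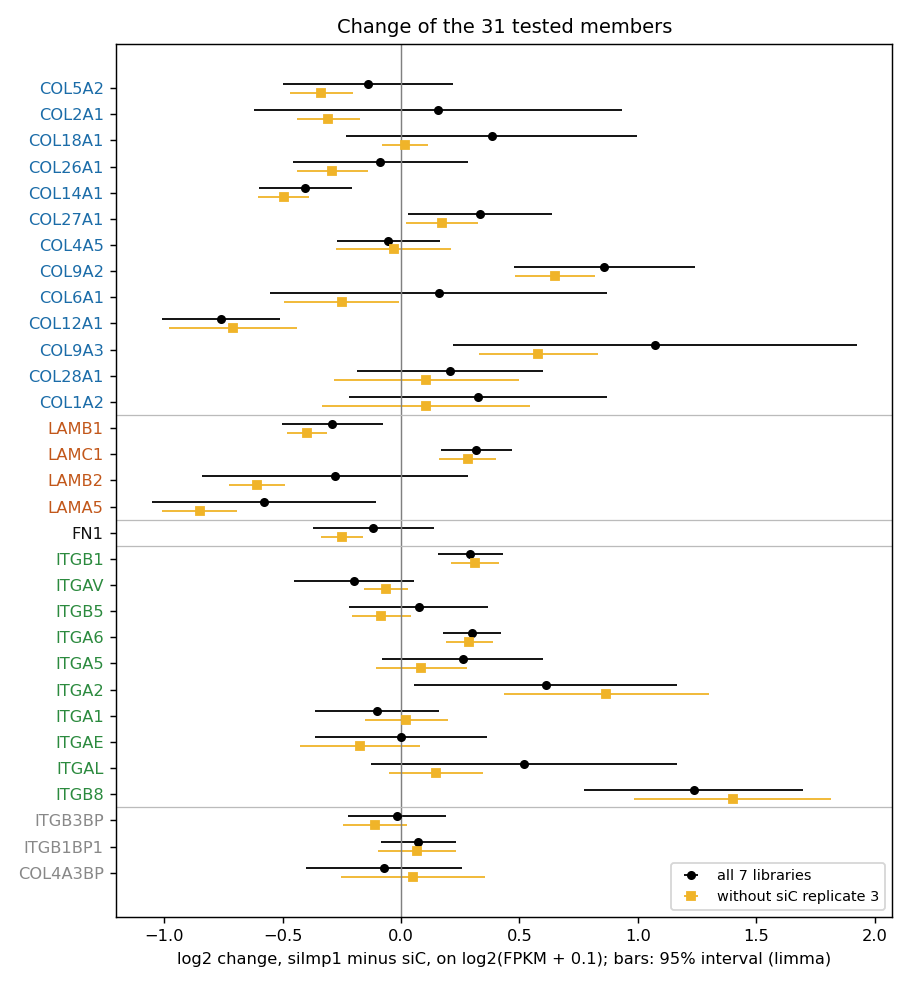
Log2 change of the 31 tested genes, siImp1 minus siC, on log2(FPKM + 0.1), with 95% intervals from limma, for all 7 libraries (circles) and without siC replicate 3 (squares). The interval of COL2A1 runs from -0.62 to 0.93 with all libraries and from -0.44 to -0.18 without siC replicate 3, whereas COL12A1 and ITGB8 hold their place.

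Laminins were represented by 4 chains that can form trimers with each other, LAMA5 as the alpha chain, LAMB1 and LAMB2 as beta chains and LAMC1 as the gamma chain. None of the 4 passed the threshold with all libraries in the limma fit or with voom. In that limma fit 3 had an unadjusted p under 0.05, as had 3838 of the 14839 genes tested. In the fit without siC replicate 3 there were 3 that passed, all lower, while 6.67% of all genes were lower. LAMA5 (ENSG00000130702, chromosome 20, 62307955 to 62367312, minus strand) was at 12.5, 11.1 and 6.66 FPKM in siC replicates 1 to 3 and 6.51, 6.28, 6.81 and 6.41 FPKM in siImp1 replicates 1 to 4. The siImp1 libraries lay at the level of siC replicate 3 and below siC replicates 1 and 2. The siImp1 mean was 64.4% of siC (log2 change -0.58, 95% interval -1.05 to -0.10, limma adjusted p = 0.122). With siC replicate 3 left out, the log2 change was -0.85 (95% interval -1.01 to -0.69, limma adjusted p = 0.000746, range 0.000419 to 0.338 across 18 other settings). LAMA5 overlaps ADRM1 on the other strand.

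LAMB1 (ENSG00000091136, chromosome 7, 107923799 to 108003213, minus strand), the beta chain of the laminins of most epithelia, was at 53.8, 53.6 and 43.0 FPKM in siC replicates 1 to 3 and 40.8, 40.0, 41.8 and 40.5 FPKM in siImp1 replicates 1 to 4. All siImp1 libraries were below all siC libraries, the closest being 41.8 FPKM against 43.0 FPKM in siC replicate 3 (log2 change -0.29, 95% interval -0.50 to -0.078, limma adjusted p = 0.0893). The log2 change without siC replicate 3 was -0.40 (95% interval -0.48 to -0.31, limma adjusted p = 0.00116, range 0.000361 to 0.374 across 18 other settings). LAMB1 overlaps DLD on the other strand.

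LAMB2 (ENSG00000172037, chromosome 3, 49121114 to 49133118, minus strand), the beta chain of neuromuscular and glomerular laminins, was at 13.96, 14.2 and 7.03 FPKM in siC replicates 1 to 3 and 9.44, 8.99, 9.46 and 8.87 FPKM in siImp1 replicates 1 to 4. The siC group spanned the siImp1 values, with siC replicate 3 lowest of the 7 libraries (log2 change -0.28, 95% interval -0.84 to 0.28, limma adjusted p = 0.53). Dropping siC replicate 3 brought the log2 change to -0.61 (95% interval -0.73 to -0.49, limma adjusted p = 0.000882, range 0.000882 to 0.84 across 18 other settings). The lower end of that range was this same fit.

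The gamma chain LAMC1 (ENSG00000135862, chromosome 1, 183023420 to 183145592, plus strand), which is shared by most laminins, lay on the other side. It was at 39.6, 39.5 and 36.6 FPKM in siC replicates 1 to 3 and 46.6, 51.1, 48.5 and 46.3 FPKM in siImp1 replicates 1 to 4. All siImp1 libraries exceeded all siC libraries, and siC replicate 3 was close to the rest of its group. The log2 change was 0.32 (95% interval 0.17 to 0.47, limma adjusted p = 0.0213, range 0.00176 to 0.235 across 18 other settings), and it was 0.28 without siC replicate 3. LAMC1 passed in neither fit. A further 7 laminin chains had means below 0.3 FPKM in both groups.

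The integrin genes that stood highest are subunits for fibronectin, laminin and RGD-containing ligands. Only ITGB8 among the 10 tested integrin genes passed the threshold. ITGB8, the beta 8 subunit, pairs with the alpha V subunit and is known for activating latent TGF-beta. ITGB8 (ENSG00000105855, chromosome 7, 20330702 to 20415754, plus strand) was at 0.544, 0.702 and 0.916 FPKM in siC replicates 1 to 3 and 1.82, 1.83, 1.85 and 1.70 FPKM in siImp1 replicates 1 to 4. All siImp1 libraries were above all siC libraries, and siC replicate 3 was the highest of its group. ITGB8 averaged 0.721 FPKM ± 0.186 in the siC libraries (SD, n = 3) against 1.80 FPKM ± 0.0690 with siImp1 (SD, n = 4), or 249.7% of siC (log2 change 1.23, 95% interval 0.77 to 1.70, limma adjusted p = 0.00987), with 180 to 519 reads per library. ITGB8 reached a mean of 1 FPKM only through siImp1, so its place among the tested genes already depended on a higher level there. The call was kept without siC replicate 3 (limma adjusted p = 0.00323) and lost when any 1 of the other 6 libraries was left out (limma adjusted p from 0.027 to 0.0446), the log2 change running from 1.07 to 1.40. It was also lost with quantile normalization, without a filter and with the replicate block.

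The partner of ITGB8, ITGAV (ENSG00000138448, chromosome 2, 186590010 to 186680901, plus strand), was at 51.3, 53.7 and 69.5 FPKM in siC replicates 1 to 3 and 49.9, 49.1, 51.4 and 50.8 FPKM in siImp1 replicates 1 to 4. Replicate 3 of siC was the highest of the 7 libraries, and the groups overlapped (log2 change -0.20, 95% interval -0.45 to 0.057, limma adjusted p = 0.307). Without that library the log2 change was -0.063 (95% interval -0.16 to 0.031). ITGB5 (ENSG00000082781, chromosome 3, 124761948 to 124901418, minus strand), another partner of ITGAV and a vitronectin receptor subunit, was at 29.5, 28.7 and 20.9 FPKM in siC replicates 1 to 3 and 27.1, 26.0, 28.8 and 28.1 FPKM in siImp1 replicates 1 to 4. The groups overlapped (log2 change 0.075, 95% interval -0.22 to 0.37, limma adjusted p = 0.768), and the sign turned without siC replicate 3 (-0.083). By level, ITGAV thus had ITGB1 and ITGB5 as abundant partners and ITGB8 as a minor one in both groups.

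ITGB1 (ENSG00000150093, chromosome 10, 32887273 to 33005792, minus strand), the beta subunit shared by collagen, laminin and fibronectin receptors, was the most abundant integrin transcript. It was at 78.5, 83.5 and 84.5 FPKM in siC replicates 1 to 3 and 101, 98.3, 99.4 and 104 FPKM in siImp1 replicates 1 to 4. All siImp1 libraries exceeded all siC libraries, and siC replicate 3 did not stand out from its group. The siImp1 mean was 122% of siC (log2 change 0.29, 95% interval 0.16 to 0.43, limma adjusted p = 0.0207), short of the threshold. In the 6 libraries without siC replicate 3, the log2 change was 0.31 (95% interval 0.21 to 0.42, limma adjusted p = 0.00435, range 0.000925 to 0.303 across 18 other settings), which passed.

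ITGA6 (ENSG00000091409, chromosome 2, 172427354 to 172506459, plus strand), the alpha subunit of laminin receptors and a partner of ITGB1, had a change of similar size. It was at 17.6, 16.8 and 16.8 FPKM in siC replicates 1 to 3 and 20.9, 21.4, 20.49 and 21.3 FPKM in siImp1 replicates 1 to 4. The groups did not overlap (log2 change 0.30, 95% interval 0.18 to 0.42, limma adjusted p = 0.0134). Leaving out siC replicate 3 gave a log2 change of 0.29 (95% interval 0.19 to 0.39, limma adjusted p = 0.00539, range 0.00086 to 0.254 across 18 other settings). ITGB4, the other partner of ITGA6, had means of 0.158 FPKM in siC and 0.0978 FPKM in siImp1.

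The alpha subunits of collagen receptors, ITGA1 and ITGA2, lie close to each other on chromosome 5 and differed in their values. ITGA2 (ENSG00000164171, chromosome 5, 52989340 to 53094779, plus strand) was at 2.81, 3.22 and 5.20 FPKM in siC replicates 1 to 3 and 5.73, 7.23, 4.68 and 4.96 FPKM in siImp1 replicates 1 to 4. Replicate 3 of siC was as high as the lower siImp1 libraries, so that the groups overlapped (log2 change 0.61, 95% interval 0.055 to 1.17, limma adjusted p = 0.156). Without it the log2 change was 0.87 (95% interval 0.43 to 1.30, limma adjusted p = 0.0176, range 0.00379 to 0.383 across 17 other settings), which missed the threshold. ITGA1 (ENSG00000213949, chromosome 5, 52787916 to 52959209, plus strand), which overlaps PELO on its own strand, was at 3.15, 3.13 and 4.09 FPKM in siC replicates 1 to 3 and 3.21, 3.35, 3.07 and 3.14 FPKM in siImp1 replicates 1 to 4. Its groups overlapped (log2 change -0.10, 95% interval -0.36 to 0.16, limma adjusted p = 0.636), and the log2 change was 0.022 without siC replicate 3.

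ITGA5 (ENSG00000161638, chromosome 12, 54395261 to 54419266, minus strand), the alpha subunit of the classical fibronectin receptor, was at 8.95, 8.76 and 6.13 FPKM in siC replicates 1 to 3 and 8.80, 9.22, 10.5 and 9.12 FPKM in siImp1 replicates 1 to 4. The groups overlapped (log2 change 0.26, 95% interval -0.08 to 0.60, limma adjusted p = 0.314), and without siC replicate 3 the log2 change was 0.085 (95% interval -0.11 to 0.28). The summed level of the 26 integrin genes was 200.9 to 213.2 FPKM in siC and 223.5 to 230.7 FPKM in siImp1, and ITGB1 made up the largest share. The sum of the 44 collagen genes was 180.7 to 311 FPKM in siC and 254 to 274.3 FPKM in siImp1.

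A pair of leukocyte integrin subunits was also tested. ITGAL (ENSG00000005844, chromosome 16, 30472658 to 30523567, plus strand), the alpha subunit of LFA-1, was at 3.31, 3.40 and 1.49 FPKM in siC replicates 1 to 3 and 3.79, 3.41, 3.98 and 3.75 FPKM in siImp1 replicates 1 to 4. All siImp1 libraries were above all siC libraries, by a margin of 3.41 against 3.40 FPKM at the closest (log2 change 0.52, 95% interval -0.12 to 1.16, limma adjusted p = 0.288). With siC replicate 3 left out, the log2 change was 0.15. Its obligate partner ITGB2 had 18 reads over all libraries. ITGAE (ENSG00000083457, chromosome 17, 3714628 to 3801188, minus strand), which overlaps HASPIN on the other strand, was at 3.89, 3.43 and 2.52 FPKM in siC replicates 1 to 3 and 3.42, 2.92, 3.12 and 3.49 FPKM in siImp1 replicates 1 to 4 and had a log2 change of -0.00032 (limma adjusted p = 0.999) and of -0.17 without siC replicate 3. Its partner ITGB7 had 5 reads over all libraries. Both alpha subunits were thus read beside almost none of the beta subunit they are known to pair with.

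In siC replicate 3, levels moved with transcript GC content. Its distance from the mean of siC replicates 1 and 2, on log2(FPKM + 0.1), had a Spearman correlation of -0.864 and a Pearson correlation of -0.836 with GC content over the 31 tested genes, all read in the same library. Over 14711 tested genes of the table the Spearman correlation was -0.427. Other libraries also moved with GC content, each set against the rest of its group. The Spearman correlations were 0.00169, -0.386, 0.264 and 0.224 in siImp1 replicates 1 to 4. They were 0.435 and 0.304 in siC replicates 1 and 2, where the rest of the group included siC replicate 3. The collagen genes are rich in GC, with a median of 61.3% over the 13 tested, against 41.3% over the 10 tested integrin genes and 47% over all tested genes. The median distance of siC replicate 3 was -0.608 over the collagen genes and 0.0146 over the integrin genes. Of the 31 genes, 5 had a change of the other sign without this library. These values stand beside every collagen and laminin result above, and the part of GC content in them was not tested beyond the removal of its trend, after which COL12A1 was lower and ITGB8, COL9A2 and LAMC1 were higher.

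**Figure D5:**
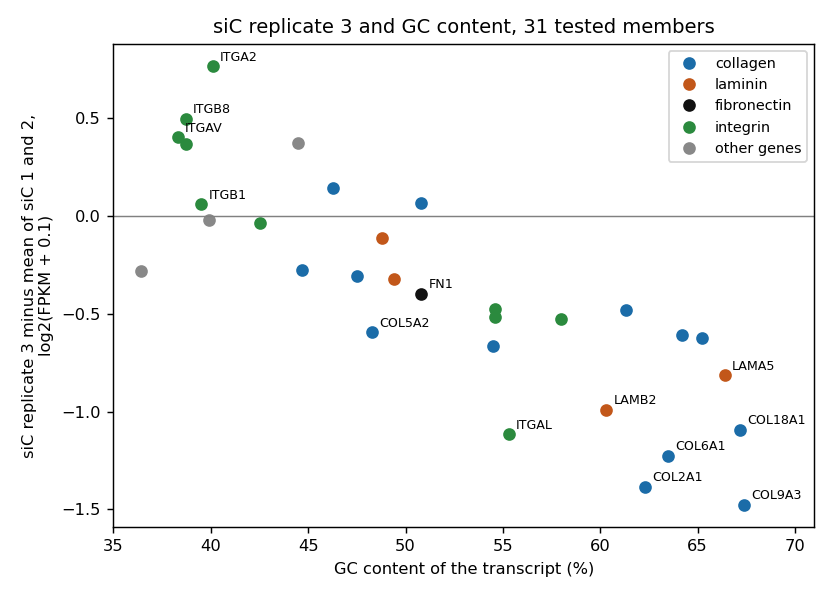
Distance of siC replicate 3 from the mean of siC replicates 1 and 2, on log2(FPKM + 0.1) (vertical axis), against the GC content of the transcript in percent (horizontal axis) for the 31 tested genes, coloured by family. COL9A3 and COL2A1 lie lowest and ITGA2 highest, and 23 of the 31 genes lie below 0.

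Of the 5 genes that share only the symbol 3 were tested, and none passed the threshold in limma, where their unadjusted p ran from 0.312 to 0.853, or with voom. COL4A3BP (ENSG00000113163, chromosome 5, 75356345 to 75512138, minus strand), which encodes the ceramide transfer protein, was at 3.43, 3.97 and 4.80 FPKM in siC replicates 1 to 3 and 3.81, 4.5003, 3.63 and 3.44 FPKM in siImp1 replicates 1 to 4 (log2 change -0.073, 95% interval -0.40 to 0.26, limma adjusted p = 0.799). ITGB1BP1 (ENSG00000119185, chromosome 2, 9403475 to 9423528, minus strand), which encodes an inhibitor of integrin activation that binds the tail of the beta 1 subunit, was at 4.52, 4.203 and 4.30 FPKM in siC replicates 1 to 3 and 4.84, 4.56, 4.49 and 4.41 FPKM in siImp1 replicates 1 to 4 (log2 change 0.074, 95% interval -0.086 to 0.23, limma adjusted p = 0.564). ITGB3BP (ENSG00000142856, chromosome 1, 63440770 to 63593721, minus strand), a centromere protein gene, was at 6.85, 6.59 and 5.52 FPKM in siC replicates 1 to 3 and 6.51, 6.19, 6.21 and 5.98 FPKM in siImp1 replicates 1 to 4 (log2 change -0.017, 95% interval -0.22 to 0.19, limma adjusted p = 0.935). Without siC replicate 3 the log2 change of COL4A3BP was 0.051, with the other sign. ITGB1BP2, a muscle gene, had means of 0.576 FPKM in siC and 0.807 FPKM in siImp1, and ITGBL1 had 7 reads in all, so that neither was tested. COL4A3BP, ITGB1BP1 and ITGB3BP overlap genes on the other strand.

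Genes that make, crosslink, bind or cleave the matrix were examined in 4 lists of 30 genes each. Of these 120 partner genes 76 were tested, and 1 was lower and 6 were higher in siImp1 (9.21% of those tested, against 3.93% of all genes). Without siC replicate 3, 11 were lower and 11 higher (28.9% of those tested, against 10.3% of all genes, with 6.67% of all genes lower and 3.59% higher). The genes named for that fit in each list are all those it called. The shares of all genes given here stand beside the counts of each list below. The median log2 change of the 76 genes was 0.00243, against -0.0174 for all genes tested.

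Collagen making and crosslinking genes gave 2 higher of 20 tested, and 1 lower (P3H3) and 5 higher (P4HA1, PLOD2, PCOLCE2, LOX and LOXL4) without siC replicate 3. P4HA1, the catalytic subunit of prolyl 4-hydroxylase, which stabilises the triple helix, was at 43.4, 43.7 and 40.9 FPKM in siC replicates 1 to 3 and 78.3, 78.2, 74.4 and 76.9 FPKM in siImp1 replicates 1 to 4. All siImp1 libraries lay above all siC libraries (log2 change 0.85, 95% interval 0.72 to 0.98, limma adjusted p = 0.000489), and P4HA1 passed in 7 of 7 fits that each left out 1 library. LOXL4, a lysyl oxidase-like crosslinking enzyme, was at 6.95, 7.05 and 6.01 FPKM in siC replicates 1 to 3 and 9.92, 10.4, 9.77 and 9.68 FPKM in siImp1 replicates 1 to 4 (log2 change 0.57, 95% interval 0.40 to 0.75, limma adjusted p = 0.00505). The call of LOXL4 was lost when any 1 library other than siC replicate 3 was left out (limma adjusted p from 0.018 to 0.0262).

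Basement membrane and matrix glycoprotein genes gave 1 lower and 1 higher of 17 tested. Leaving siC replicate 3 out gave 3 lower (EFEMP1, HSPG2 and VTN) and 2 higher (THBS1 and SPARC). THBS1, thrombospondin 1, a matricellular protein that binds integrins and activates TGF-beta, was at 20.7, 19.8 and 21.4 FPKM in siC replicates 1 to 3 and 38.1, 39.1, 37.9 and 35.8 FPKM in siImp1 replicates 1 to 4. The groups were well apart (log2 change 0.86, 95% interval 0.73 to 1.00, limma adjusted p = 0.000536), and THBS1 passed in 7 of 7 fits without 1 library. EFEMP1, which encodes a fibulin, was at 19.2, 19.1 and 16.8 FPKM in siC replicates 1 to 3 and 10.7, 9.34, 10.0 and 11.3 FPKM in siImp1 replicates 1 to 4 (log2 change -0.82, 95% interval -1.03 to -0.62, limma adjusted p = 0.00235). It was the partner gene that fell with all libraries, and its call was lost without siC replicates 1 or 2 or siImp1 replicates 1 or 3 (limma adjusted p from 0.0128 to 0.0159).

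The integrin adhesion complex gave 1 higher of 23 tested. KANK1, which links integrin adhesions to the microtubule cortex, was at 8.82, 8.96 and 9.05 FPKM in siC replicates 1 to 3 and 12.1, 12.2, 11.5 and 11.4 FPKM in siImp1 replicates 1 to 4 (log2 change 0.40, 95% interval 0.26 to 0.53, limma adjusted p = 0.00649), a call lost when any 1 library other than siC replicate 3 was left out (limma adjusted p from 0.0239 to 0.0356). Of the 23 genes, 15 had a fitted change below 0, and the median log2 change was -0.128. In the fit lacking siC replicate 3, 5 were lower (TLN1, VCL, ILK, TNS3 and ACTN4) and 2 higher (FERMT2 and KANK1).

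Matrix proteases and their inhibitors gave 2 higher of 16 tested. Leaving out siC replicate 3 added 2 lower (MMP14 and MMP15) to the same 2 higher. ADAM17, a sheddase of membrane proteins, was at 9.56, 9.61 and 9.75 FPKM in siC replicates 1 to 3 and 14.2, 14.2, 14.8 and 14.6 FPKM in siImp1 replicates 1 to 4 (log2 change 0.58, 95% interval 0.46 to 0.70, limma adjusted p = 0.00119), and its call was lost only without siC replicate 2 (limma adjusted p = 0.0109) among the fits that left out 1 library. RECK, a membrane-anchored inhibitor of matrix metalloproteinases, was at 1.20, 1.32 and 1.55 FPKM in siC replicates 1 to 3 and 2.67, 2.69, 2.65 and 2.45 FPKM in siImp1 replicates 1 to 4 (log2 change 0.90, 95% interval 0.62 to 1.18, limma adjusted p = 0.00512), with a call lost when any 1 library other than siC replicate 3 was left out (limma adjusted p from 0.0198 to 0.0278). With all libraries, the higher partner genes therefore included an enzyme for collagen synthesis, a crosslinking enzyme, a matricellular glycoprotein, an adhesion linker, a sheddase and a protease inhibitor.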

How the data were processed

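Total RNA of Huh-7 cells was sequenced in 3 siC and 4 siImp1 libraries. According to the study's methods and the submitters' processing notes, the authors depleted ribosomal RNA, made directional libraries, removed adapters using cutadapt (1.14), mapped to GRCh38 using HISAT2 (2.1.0) and SAMtools (1.5), summarised genes of Ensembl release 89 using featureCounts (1.5.3) and tested with edgeR (3.18.1) after TMM normalization. The deposited FPKM values are scaled by the authors to gene length and TMM-scaled library size. The authors' log2 fold changes and p-values with FDR, also deposited, were not used. FPKM times gene length gave whole multiples of 1 read (within 0.1) for 100.0% of values above 0. Columns outside the labels numbered 0.

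Genes averaging 1 FPKM or more were tested in limma-trend (3.58.1, R 4.3.3) using log2(FPKM + 0.1), two-sided, without covariates, with Benjamini-Hochberg adjustment over 14839 genes and a threshold of 0.01. Fold changes on this scale understate the change of low genes. The script was tested on simulated reads. Coordinates, exons, transcript GC content (for 99.1% of tested genes) and 3′UTRs came from GENCODE release 44, which held 57392 of the 58174 identifiers and all 88 members.

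Members, lists and motifs were chosen with earlier results of these data known. Named genes were IGF2BP1, FN1, members past the threshold, the 6 collagen, 5 laminin and 10 integrin genes highest in siC, the 5 largest changes without overlap, symbol-only genes and partner genes past the threshold. The lists cover collagen making and crosslinking, basement membrane and matrix glycoproteins, the integrin adhesion complex, matrix proteases and inhibitors, and hepatocyte, stellate and endothelial or leukocyte markers. Alternatives were another pseudocount, other filters, median centring, quantile normalization, voom on recovered reads, array weights, GC trend removal, protein-coding genes only, a threshold of 0.05, the replicate block and leaving out each library. The result of 1 member gene is not reported here.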

Additional observations from a re-analysis of the deposited data

Results flagged for a closer look

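Among 38 sets of siImp1 libraries of the genes named, 2 held a library far from the other 3, and 1.9 would be flagged by chance at this level. In COL18A1, siImp1 replicate 4 was at 33.8 FPKM against 35.6 to 35.8 FPKM in the other siImp1 libraries, a gap of 0.891 of the range (above Dixon's critical value for 4 samples). In ITGBL1 the ratio was 1, because 1 read lay in siImp1 replicate 1 and 0 in the others. The siC group, with 3 libraries, is too small for this rule.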

How the results depend on the processing

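Counts of the 31 tested genes that passed depended on the setting. The share of all genes called is given only with all libraries (3.93%) and without siC replicate 3 (10.3%). Nothing is therefore read from the member and partner counts under the other settings. With all settings as planned there was 1 lower and 1 higher. The lower count was 7 with array weights, 0 with a mean of at least 5 FPKM, 0 without a filter and 2 at a threshold of 0.05. The higher count was 3 with the GC trend removed, 6 with array weights, 0 with a mean of at least 5 FPKM, 0 without a filter, 3 over protein-coding genes only, 2 with voom and 5 at a threshold of 0.05. With quantile normalization ITGB8 missed the threshold (limma adjusted p = 0.0165) and ITGA6 passed instead (limma adjusted p = 0.00939). Leaving out 1 library gave 0 to 7 lower and 0 to 4 higher. COL12A1 and ITGB8 have means below 5 FPKM, so that filter removed them. Partner genes lower were 4 with the GC trend removed, 17 with array weights, 4 over protein-coding genes only, 5 with voom, 7 at a threshold of 0.05 and 0 to 11 leaving out 1 library. Partner genes higher were 11 with array weights, 3 without a filter, 10 at a threshold of 0.05 and 2 to 11 leaving out 1 library. The cause was not tested.

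Signs turned for genes with small changes. With array weights the log2 change of COL2A1 was -0.265, of ITGB5 -0.0618 and of ITGA1 0.00816. ITGAE was at 0.0272 with the GC trend removed and 0.029 with median centring. ITGB3BP was at 0.0124 with median centring and 0.0139 with quantile normalization. Leaving out 1 library, the log2 change ran from -0.307 to 0.404 for COL2A1, -0.29 to 0.0158 for COL26A1, -0.0833 to 0.165 for ITGB5, -0.164 to 0.0217 for ITGA1, -0.173 to 0.131 for ITGAE, -0.186 to 0.0512 for COL4A3BP and -0.11 to 0.0436 for ITGB3BP.

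The replicate numbers are shared by siC and siImp1, and the labels do not say whether they pair the libraries. The correlations of deviations from the group means were -0.0263, -0.118 and -0.111 for numbers 1 to 3. For libraries of unlike number they ran from -0.169 to 0.201. Whether libraries of the same number were prepared together was not tested. With the replicate block 0 of the members and 0 of the partner genes passed in either direction, IGF2BP1 missed the threshold (log2 change -2.36, limma adjusted p = 0.0909), and ITGB3BP turned to 0.00144. With 7 libraries the block leaves little data to estimate the spread, and siImp1 replicate 4 has no siC library of its number. Few genes could pass under it, so nothing is read from these counts. With 12826550 to 33212205 reads on genes, depth limits the genes with few reads, such as COL9A3.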
